A study of Mus musculus with 24 samples.

Results

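The 41 cell cycle genes described here were taken by symbol from a list and matched to Ensembl identifiers through the GENCODE M21 annotation of the mouse genome GRCm38. They are 41 of the 54232 genes in the deposited count table, and every one was found. By role, 7 act in the control of G1 (the phase before DNA is copied), 12 in DNA replication and 22 in mitosis. Their levels were measured by RNA sequencing of visceral adipose tissue from male C57Bl6 mice given as 10 weeks old, with 6 mice and 1 library per mouse in each of 4 groups. All mice received a lentivirus into the abdomen in which the adiponectin promoter, active in adipocytes, drives the transgene, and all ate normal chow. Control mice had a sham operation and received green fluorescent protein (GFP). NaKtide mice had a sham operation and received NaKtide, a peptide made to block signalling through the Na,K-ATPase and Src, linked by a 2A peptide to GFP. PNx mice had a 5/6 nephrectomy (ligation of the poles of the left kidney, then removal of the right one) and received GFP, and PNx+NaKtide mice had the nephrectomy and received NaKtide. The transgene is limited to cells in which that promoter is active, while the RNA came from whole tissue, in which fewer cells of a type and less RNA per cell cannot be told apart.

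A cell that is to divide passes through G1 under cyclin D with Cdk4 and cyclin E with Cdk2, which are held back by the inhibitors p21 (Cdkn1a) and p27 (Cdkn1b) and which release E2F transcription factors. E2F factors turn on the genes of DNA replication, among them the Mcm helicase, its loaders Cdc6 and Cdt1, the sliding clamp Pcna and the ribonucleotide reductase that makes deoxynucleotides. Later, the cyclin B kinase Cdk1 and the genes of the spindle, the kinetochore and the spindle checkpoint are turned on through promoters that carry CCAAT boxes and a cell cycle homology region (CHR), with FOXM1 among the factors that act there. Mature adipocytes do not divide, and dividing cells in fat are precursor, vascular and immune cells.

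The promoters of the replication and of the mitosis genes were searched for E2F type, CHR type and CCAAT motifs, and the shares are given side by side without a test between the sets. RefSeq gave a promoter (250 bases before to 50 bases after the start of the gene, GRCm38.p6) for 34 of the 41 genes. Ccnd1, Mcm4, Ccna2, Aurkb, Cdc25c, Tpx2 and Foxm1 had no entry. An E2F type motif, which was TTCCCGC or else TTGGCGC or else TTCGCGC or else TTGCCGC on either strand, lay in 8 of 11 replication promoters (72.7%), in 3 of 17 mitosis promoters (17.6%) and in 1 of 6 G1 promoters, against 9.57% of all 32851 promoters of that length. A CHR type motif (TTTGAA or TTCGAA on either strand) lay in 13 of 17 mitosis promoters (76.5%), in 3 of 11 replication promoters (27.3%) and in 0 of 6 G1 promoters, against 19.2% of all. CCAAT on either strand lay in 16 of 17 mitosis promoters (94.1%) and in 9 of 11 replication promoters (81.8%), against 37.4% of all. Both a CHR type motif and CCAAT were found in 13 of 17 mitosis promoters and in 7.52% of all promoters. A match is a description of letters and not a measured site.

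Of the genes that have an entry and whose exons overlap no opposite-strand gene, the 3 replication and the 3 mitosis genes of smallest p between PNx and Control are shown, read 5′ to 3′ on the strand of the gene. The capitals mark the E2F type, CHR type and CCAAT matches, and matches that overlap run together. Rrm2 lies at chr12:24708004-24708303 on the plus strand, Mcm6 at chr1:128359656-128359955 on the minus strand, Pcna at chr2:132253131-132253430 on the minus strand, Cenpf at chr1:189688037-189688336 on the minus strand, Kif11 at chr19:37376132-37376431 on the plus strand and Bub1 at chr2:127831810-127832109 on the minus strand.
Rrm2: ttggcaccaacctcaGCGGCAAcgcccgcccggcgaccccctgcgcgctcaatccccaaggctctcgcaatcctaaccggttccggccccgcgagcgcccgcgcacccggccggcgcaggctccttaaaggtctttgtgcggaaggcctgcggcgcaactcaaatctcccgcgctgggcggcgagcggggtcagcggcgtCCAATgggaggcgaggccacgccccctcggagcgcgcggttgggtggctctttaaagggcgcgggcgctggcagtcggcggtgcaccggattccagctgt
Mcm6: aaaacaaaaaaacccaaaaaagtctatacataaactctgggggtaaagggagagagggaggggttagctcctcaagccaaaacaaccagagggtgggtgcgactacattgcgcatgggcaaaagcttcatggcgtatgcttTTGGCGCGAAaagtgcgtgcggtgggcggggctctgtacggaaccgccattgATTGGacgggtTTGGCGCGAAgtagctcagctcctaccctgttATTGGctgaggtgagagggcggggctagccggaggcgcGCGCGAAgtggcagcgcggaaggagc
Pcna: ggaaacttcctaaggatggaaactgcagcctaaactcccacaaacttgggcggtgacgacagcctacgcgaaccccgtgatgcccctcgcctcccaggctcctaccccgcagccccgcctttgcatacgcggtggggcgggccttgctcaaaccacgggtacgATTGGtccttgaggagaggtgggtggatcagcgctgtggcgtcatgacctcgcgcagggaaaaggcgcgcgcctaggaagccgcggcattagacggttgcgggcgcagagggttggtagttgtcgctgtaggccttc
Cenpf: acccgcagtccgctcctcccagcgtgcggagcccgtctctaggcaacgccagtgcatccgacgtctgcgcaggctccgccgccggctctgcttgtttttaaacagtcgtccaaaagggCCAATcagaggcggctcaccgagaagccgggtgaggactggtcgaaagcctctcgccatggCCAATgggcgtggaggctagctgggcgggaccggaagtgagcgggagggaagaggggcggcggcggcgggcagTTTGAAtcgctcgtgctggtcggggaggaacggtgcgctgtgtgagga
Kif11: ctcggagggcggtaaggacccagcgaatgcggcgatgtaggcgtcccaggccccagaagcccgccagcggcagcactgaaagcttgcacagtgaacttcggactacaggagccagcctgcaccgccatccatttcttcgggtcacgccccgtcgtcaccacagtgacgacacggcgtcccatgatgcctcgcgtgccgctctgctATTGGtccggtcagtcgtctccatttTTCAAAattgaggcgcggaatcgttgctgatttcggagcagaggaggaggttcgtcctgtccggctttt
Bub1: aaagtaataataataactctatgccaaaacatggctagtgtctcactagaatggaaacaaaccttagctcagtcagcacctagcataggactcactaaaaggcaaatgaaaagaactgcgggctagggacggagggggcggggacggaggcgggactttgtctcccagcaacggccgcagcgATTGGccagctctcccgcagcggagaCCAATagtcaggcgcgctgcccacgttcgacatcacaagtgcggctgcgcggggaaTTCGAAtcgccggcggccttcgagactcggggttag
The Mcm6 promoter held 5 E2F type matches, which include 2 pairs that overlap each other. The Rrm2 promoter held 1, and that of Pcna held none of these letters. Each of the 3 mitosis promoters held 1 CHR type match close to the gene start, with its first base at position 3 in Cenpf, -19 in Kif11 and 15 in Bub1 (1 is the first base of the gene in RefSeq), and Cenpf and Bub1 held 2 CCAAT matches each.

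The libraries held 679250 to 2979505 counts in genes, so 0 counts in a library allows 3 counts, or 0.739 to 5.91 CPM (counts scaled to a common library total with TMM factors, the trimmed mean of M values), counting error only. The strand of the counts limits what a gene value means. The kit keeps strand, the strand setting of the counting was not given in the sources used here, and the 16.8% of genes whose exons overlap those of an opposite-strand gene held 79.9% of all counts. The mitochondrial mRNA mt-Nd6, named here for its strand after its values were seen, lies on the strand opposite to the other 12 and had 403137 counts per kb against 5968 for those 12, so a count in this table may come from reads of the strand opposite to the gene. PNx libraries 1, 2 and 3 stood apart from the remaining libraries, with scores on the first principal component of 233.5, 199.9 and 190.7 against -80.5, -78.9 and -26.7 for PNx 4, 5 and 6. On the second component PNx 6 (183.7) and NaKtide 6 (175.3) lay apart from the others, which reached at most 33.2. Counts and medians that rest on PNx are therefore given with and without PNx 1, 2 and 3, and single fold changes without them are given for Cenpf, Kif11 and other named genes, including each named gene whose sign changed.

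All 41 genes had more than 10 counts over the 24 libraries and were tested. Their total counts ran from 18 (Cdt1) to 38168 (Cdk4) with a median of 155, and 13 had fewer than 100. In 11 of the 41, exon bases are shared with a gene on the other strand, and these 11 held 53426 of the 59625 counts (89.6%). Cdk4 shares 641 bases with Tspan31, Ccna2 shares 510 with Exosc9, Ccnd1 shares 1100 with LTO1, and Cdc45 shares 209 with Ufd1. Mcm7 shares 321 bases with Ap4m1 and 64 with Cops6. Cdk2 (34 bases, Pmel), Cdkn1a (273, AC167363.2), Plk1 (156, Gm44985), Cdc20 (53, Elovl1), Cdc25c (623, Gm3550) and Nek2 (298, Gm38037) are the others. The reads of these genes and of their partners cannot be told apart here, and group sums are therefore given over the 30 members without such an overlap. The counts of those 30 may also come from reads of the strand opposite to the gene. Whether their sums and fold changes measure the mRNA of the genes was not tested.

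Summed over those 30 genes, the level was nearly even in Control, at 98.6 to 111 CPM (mean 104 ± 4.54, SD, n = 6). In PNx it was 278, 234 and 283 CPM in libraries 1, 2 and 3 and 85.6, 95 and 89.1 CPM in libraries 4, 5 and 6. So the PNx group split into 3 libraries above every Control library and 3 below every one. In PNx+NaKtide the sum was 83, 142, 145, 131, 90.7 and 57.7 CPM in libraries 1 to 6, and in NaKtide 135, 87.5, 122, 79.9, 72.8 and 51.1 CPM. Those groups lay on both sides of the Control range.

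In summed CPM the 17 mitosis genes without overlap stood at 169, 132 and 183 CPM in PNx 1, 2 and 3 and 52.6, 55.2 and 34.7 CPM in PNx 4, 5 and 6, against 46 to 65.4 CPM in Control. The 10 replication genes without overlap summed to 71.5, 68.2 and 69.9 CPM in PNx 1, 2 and 3 and to 31.4, 32.1 and 41.9 CPM in PNx 4, 5 and 6, against 36.4 to 49.7 CPM in Control. The 3 G1 genes without overlap summed to 37.7, 33.5 and 30.3 CPM in PNx 1, 2 and 3 and to 1.57, 7.72 and 12.5 CPM in PNx 4, 5 and 6, against 2.96 to 12.7 CPM in Control. In all 3 roles PNx 1, 2 and 3 lay above every Control library. No mitosis gene of the 17 was at 0 counts in PNx 1, 2 or 3, while 7 were at 0 in PNx 4 and 13 in NaKtide 5, the shallowest library. The number of genes at 0 depends on depth, and PNx 1 and 3 were the deepest libraries. There 0 counts allows 0.739 and 0.757 CPM, against 2.36 CPM in PNx 4 and 5.91 CPM in NaKtide 5. The 3 highest of the 24 libraries were PNx 1, 2 and 3 for 21 of the 41 members (51.2%), which were 14 of 22 mitosis genes, 3 of 12 replication genes and 4 of 7 G1 genes. The same held for 16.4% of all 26116 genes tested.

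**Figure D1:**
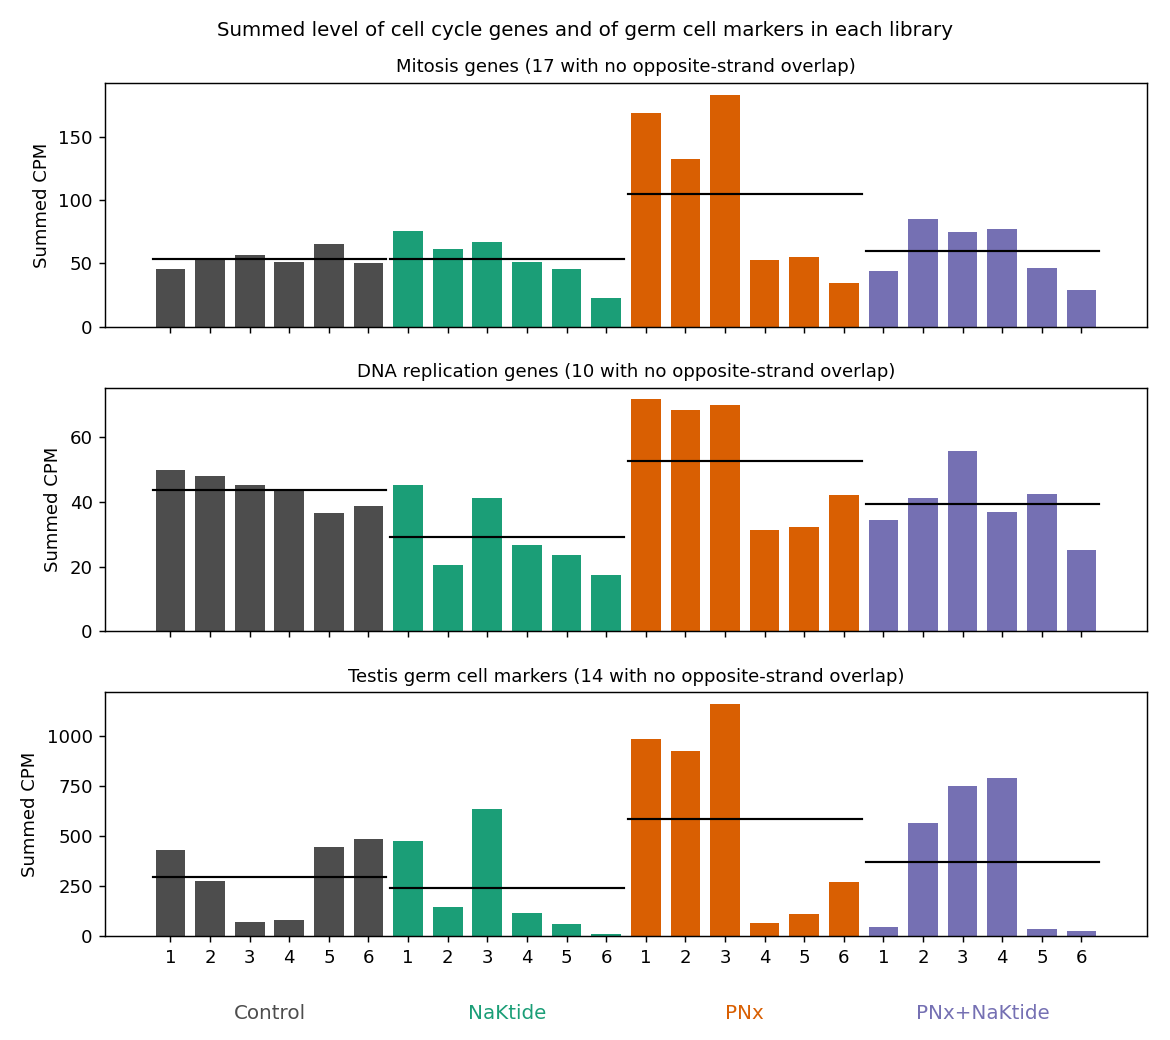
Summed level in CPM (y axis, linear from 0) of the 17 mitosis genes, the 10 replication genes and 14 testis germ cell markers, all without opposite-strand overlap, in libraries 1 to 6 of each group (x axis). Each bar is 1 library and each line is a group mean. The tallest bars in all 3 panels are PNx 1, 2 and 3.

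Markers of other cell types were summed in the same libraries. The 14 testis germ cell markers without overlap, among them Sycp1 of the meiotic chromosome axis and Prm1 and Tnp1 of sperm chromatin, summed to 982, 925 and 1158 CPM in PNx 1, 2 and 3 and to 65.2, 110 and 271 CPM in PNx 4, 5 and 6. The range was 69.8 to 485 CPM in Control, 10.3 to 635 CPM in NaKtide and 26.5 to 788 CPM in PNx+NaKtide. All 14 had counts in PNx 1, 2 and 3, and none of the full list of 16 was at 0 in every library. The libraries with the highest germ cell sums were the 3 with the highest mitosis sums, and in PNx+NaKtide libraries 2, 3 and 4 were the highest in both, at 566, 748 and 788 CPM of germ cell markers and 85.3, 75 and 77.5 CPM of mitosis genes. NaKtide 1 and 3 were also the highest of their group in both. In Control the orders differed. Control 1 and 6 had 428 and 485 CPM of germ cell markers and 46 and 50.2 CPM of mitosis genes. Control 3 had 69.8 and 56.8 CPM, and Control 5 had 442 and 65.4 CPM. Among PNx 4, 5 and 6, the highest germ cell sum (PNx 6, 271 CPM) went with the lowest mitosis sum (34.7 CPM). The part of germ cell RNA in the levels of the members was not tested.

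The other marker lists had their highest sums in other libraries. The 12 epididymis markers, all without overlap, summed to 3.2, 181 and 556 CPM in PNx 1, 2 and 3, to 1076, 1768 and 104 CPM in PNx 4, 5 and 6, and to 635 to 1961 CPM in Control, 18.7 to 1964 CPM in NaKtide and 781 to 2008 CPM in PNx+NaKtide. The 12 adipocyte markers, 3 of them with an overlap, summed to 266 to 759 CPM in Control, 255 to 5004 CPM in NaKtide, 228 to 6039 CPM in PNx and 101 to 1068 CPM in PNx+NaKtide, where 5004 and 6039 CPM were those of NaKtide 6 and PNx 6. Over the 12 adipocyte markers, PNx 1, 2 and 3 summed to 269, 253 and 248 CPM. Of the genes that define adipocytes, Adipoq had 3 to 913 raw counts in every library. In PNx 1, 2 and 3 Adipoq was at 386, 349 and 351 raw counts and Plin1 at 8, 2 and 3. These raw counts are not scaled to depth, and the same libraries held 2979505, 2309056 and 2678556 counts in genes. The 8 macrophage markers stood between 153 and 581 CPM and the 12 lymphocyte markers between 19.9 and 200 CPM. The 8 erythroid markers stood between 12.1 and 245 CPM with 1628 CPM in PNx 6. Each of these lists held 1 marker with an overlap. The 7 macrophage markers without overlap summed to 10.1 to 109 CPM, highest in PNx 6 (109 CPM) and NaKtide 6 (91.8 CPM). The lowest sums of the 24 libraries were those of PNx 1, 2 and 3 both for macrophages, at 153, 259 and 171 CPM, and for lymphocytes, at 25.4, 26.7 and 19.9 CPM. The part of these cell types in the results was not tested.

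The first comparison, PNx against Control, asks what nephrectomy does in mice given GFP. By edgeR's quasi-likelihood test with Benjamini-Hochberg adjustment over all 26116 genes, 0 of the 41 members passed an adjusted p of 0.1, where 20 genes (0.0766%) did, all lower in PNx. At an unadjusted p under 0.05 there were 17 members higher and 2 lower in PNx, against 18.5% of all genes higher and 6.88% lower. These were 12 of 22 mitosis genes, all higher, 5 of 7 G1 genes (4 higher, 1 lower) and 2 of 12 replication genes (1 higher, 1 lower). The median log2 fold change of PNx over Control was 1.22 for the members against 0.36 for all genes tested. It was 1.77 over the mitosis genes, 1.22 over the G1 genes and 0.49 over the replication genes.

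Whether members passed depended on the tool and on the libraries. With DESeq2, the tool the study used, 24 members passed the same adjusted threshold, where 29.7% of all genes did, and with the DESeq2 size factors in edgeR 24 passed, where 33.3% did. Those factors moved the median of all genes from 0.36 to 0.76 and that of the members from 1.22 to 1.90. With limma voom and sample weights 31 passed, where 63.8% of all genes did. Without PNx 1, 2 and 3, 0 members passed in edgeR, 1 was higher and 1 lower at an unadjusted p under 0.05, where 10.7% of all genes were below it, and the median of the members was -0.03. Of the 41 fold changes, 34 were above 0 with these libraries and 20 without them, and the median over the mitosis genes went from 1.77 to -0.02. Without them the log2 fold change was 0.97 ± 1.00 for Cenpf, 1.25 ± 0.91 for Kif11, -1.50 ± 0.74 for Rrm2, 2.37 ± 0.82 for Mcm6, 0.55 ± 1.13 for Cenpe and 0.21 ± 0.92 for Top2a. It turned to below 0 for others, with -1.10 ± 1.05 for Bub1, -0.69 ± 1.17 for Ccne1, -0.32 ± 1.10 for E2f1 and -0.80 ± 0.49 for Pcna. Leaving out a single library gave 20 called members without PNx 4, where 27.6% of all genes were called, 17 without PNx 5 (22.9%) and 12 without PNx 6 (14.5%). At an unadjusted p under 0.05, there were 12 members without PNx 1, where 16.1% of all genes were below it, and 10 without PNx 3 (16.9%).

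Among the genes of G1 control, Cdk4 (ENSMUSG00000006728, chromosome 10, 127063534 to 127067920), the kinase partner of cyclin D, was the member of highest counted level, with a mean of 298 FPKM (fragments per kb of gene length, on a common library total). It stood at 714, 1245 and 1413 CPM (lowest, median, highest) in Control and at 69.5, 308 and 214 CPM in PNx 1, 2 and 3 and 1928, 1348 and 629 CPM in PNx 4, 5 and 6. So its spread in PNx covered the Control range on both sides, and the log2 fold change was -0.64 ± 0.48 (SE, edgeR, adjusted p = 0.375). Tspan31, which shares 641 exon bases with Cdk4 on the other strand, had 737 counts in all against 38168 for Cdk4. The reads of Cdk4 and Tspan31 cannot be told apart here. Cyclin D1 (Ccnd1, ENSMUSG00000070348, chromosome 7, 144929931 to 144939925), which binds and activates Cdk4, was 83.1, 103 and 131 CPM in Control. In PNx it was 8.62, 21.8 and 17.2 CPM in libraries 1, 2 and 3 and 109, 90.3 and 34.7 CPM in libraries 4, 5 and 6. Its log2 fold change of -1.17 ± 0.43 did not pass the threshold (edgeR, adjusted p = 0.141). Its partner on the other strand, LTO1, had 1492 ± 299 CPM in Control and 755 ± 813 CPM in PNx (SD, n = 6 each).

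The inhibitor p21 (Cdkn1a, ENSMUSG00000023067, chromosome 17, 29090976 to 29100727) was 0, 2.73 and 6.79 CPM in Control. In PNx it was 17, 10.9, 10.6, 4.71, 1.78 and 9.81 CPM in libraries 1 to 6, so 4 of 6 were above every Control library. The log2 fold change was 1.61 ± 0.68 (edgeR, adjusted p = 0.157). The inhibitor p27 (Cdkn1b) was 0.617 to 3.35 CPM in Control, and in PNx 5 of 6 libraries were at 0.493 to 4.16 CPM and library 6 at 8.68 CPM, with a log2 fold change of 0.39 ± 0.63. Of the 2 inhibitors, p21 had its highest values in PNx 1, 2 and 3 and p27 did not.

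Cyclin E1 (Ccne1, ENSMUSG00000002068, chromosome 7, 38097984 to 38107534), the partner of Cdk2 at the start of replication, was 0 to 6.02 CPM in Control. It was 23.2, 21 and 17.9 CPM in PNx 1, 2 and 3 and 0.785, 2.97 and 0.755 CPM in PNx 4, 5 and 6, so the former lay above and the latter within the Control range. The log2 fold change was 2.18 ± 0.97 (edgeR, adjusted p = 0.172). E2f1, the activating E2F factor, was 0 to 3.7 CPM in Control, 14, 11.3 and 11.9 CPM in PNx 1, 2 and 3 and 0, 0.594 and 3.02 CPM in PNx 4, 5 and 6. Its log2 fold change was 1.97 ± 0.91 (edgeR, adjusted p = 0.18). Cdk2 stood at 37.7, 35.5 and 23.2 CPM in PNx 1, 2 and 3, above the 4.73 to 15.5 CPM of Control, and at 9.42, 4.75 and 9.81 CPM in PNx 4, 5 and 6, within that range.

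**Figure D2:**
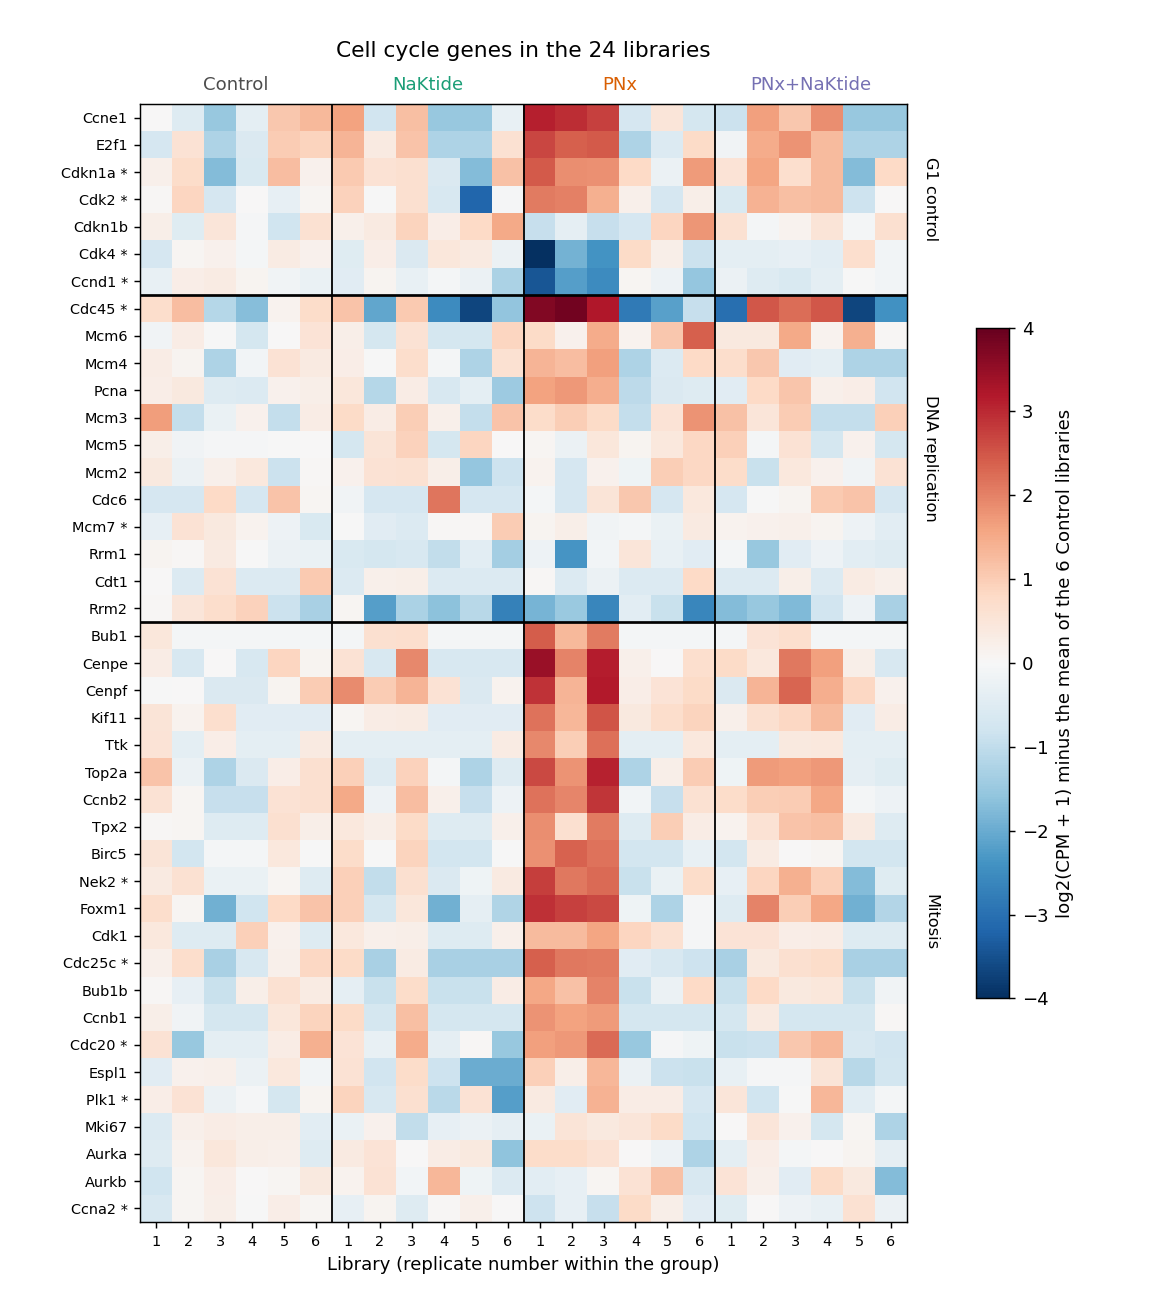
Level of each of the 41 members in each library as log2 CPM minus the mean of the gene over the Control libraries (colour scale from -4 to 4), with genes in rows by role, libraries in columns by group and * for members with an opposite-strand overlap. The columns of PNx 1, 2 and 3 hold the highest values for most mitosis genes, while Ccnd1, Cdk4 and Rrm2 have lower values there.

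Among the replication genes, the subunits of ribonucleotide reductase and the helicase differed. Rrm2 (ENSMUSG00000020649, chromosome 12, 24708241 to 24714146, plus strand), the small subunit whose synthesis follows S phase, was the replication gene of smallest p and it was lower in PNx. It was 10.2, 14, 16.6, 19.3, 4.94 and 3.35 CPM in Control 1 to 6 and 1.97, 2.83, 0.757, 7.07, 4.75 and 0.755 CPM in PNx 1 to 6. The groups overlapped in the range from 3.35 to 7.07 CPM, 4 PNx libraries lay below every Control library, and the log2 fold change was -1.99 ± 0.61 (edgeR, adjusted p = 0.13). The large subunit Rrm1 (ENSMUSG00000030978, chromosome 7, 102441695 to 102469771) was 6.69 to 10.7 CPM in Control and 0.808 to 11.8 CPM in PNx, with a log2 fold change of -0.35 ± 0.42.

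Mcm6 (ENSMUSG00000026355, chromosome 1, 128331590 to 128359664, minus strand), a subunit of the replicative helicase, was 0 to 1.34 CPM in Control. It was 1.72, 0.808, 3.53, 0.785, 2.38 and 7.55 CPM in PNx 1 to 6, so its highest value was in PNx 6 and not in PNx 1, 2 or 3. Its log2 fold change was 2.00 ± 0.73 (edgeR, adjusted p = 0.14), from 77 counts in all 24 libraries. Its fellow subunit Mcm2 was 0.617 to 2.92 CPM in Control and 0.808 to 4.75 CPM in PNx, with a log2 fold change of 0.35 ± 0.56. For Mcm7, the groups overlapped throughout, at 22.1 to 52 CPM in Control and 28.5 to 44.5 CPM in PNx, with a log2 fold change of 0.00 ± 0.31 and counts that its partner Ap4m1 (24829 counts in all) shares in part. So the helicase subunits did not have one pattern.

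The sliding clamp Pcna (ENSMUSG00000027342, chromosome 2, 132249162 to 132253314, minus strand) had most reads of the replication genes without overlap, 1033 in all. It was 10.5 to 21 CPM in Control, 49.8, 55.3 and 44.4 CPM in PNx 1, 2 and 3 and 7.07, 10.1 and 10.6 CPM in PNx 4, 5 and 6. The former lay above every Control library and the latter near or below the lowest of them, and the log2 fold change was 0.86 ± 0.49 (edgeR, adjusted p = 0.25). Cdc45, which joins the helicase at firing origins, was 2.92 to 29 CPM in Control, 165, 182 and 116 CPM in PNx 1, 2 and 3 and 0.785, 1.78 and 5.66 CPM in PNx 4, 5 and 6. Its log2 fold change was 2.40 ± 1.21 (edgeR, adjusted p = 0.21), the highest of the replication genes, and its partner Ufd1 had 8.48 ± 2.48 CPM in Control and 20.1 ± 11.2 CPM in PNx (SD, n = 6 each). The loaders Cdc6 and Cdt1 had 35 and 18 counts in all 24 libraries, and their log2 fold changes were 0.07 ± 1.07 and -0.43 ± 0.96.

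**Figure D3:**
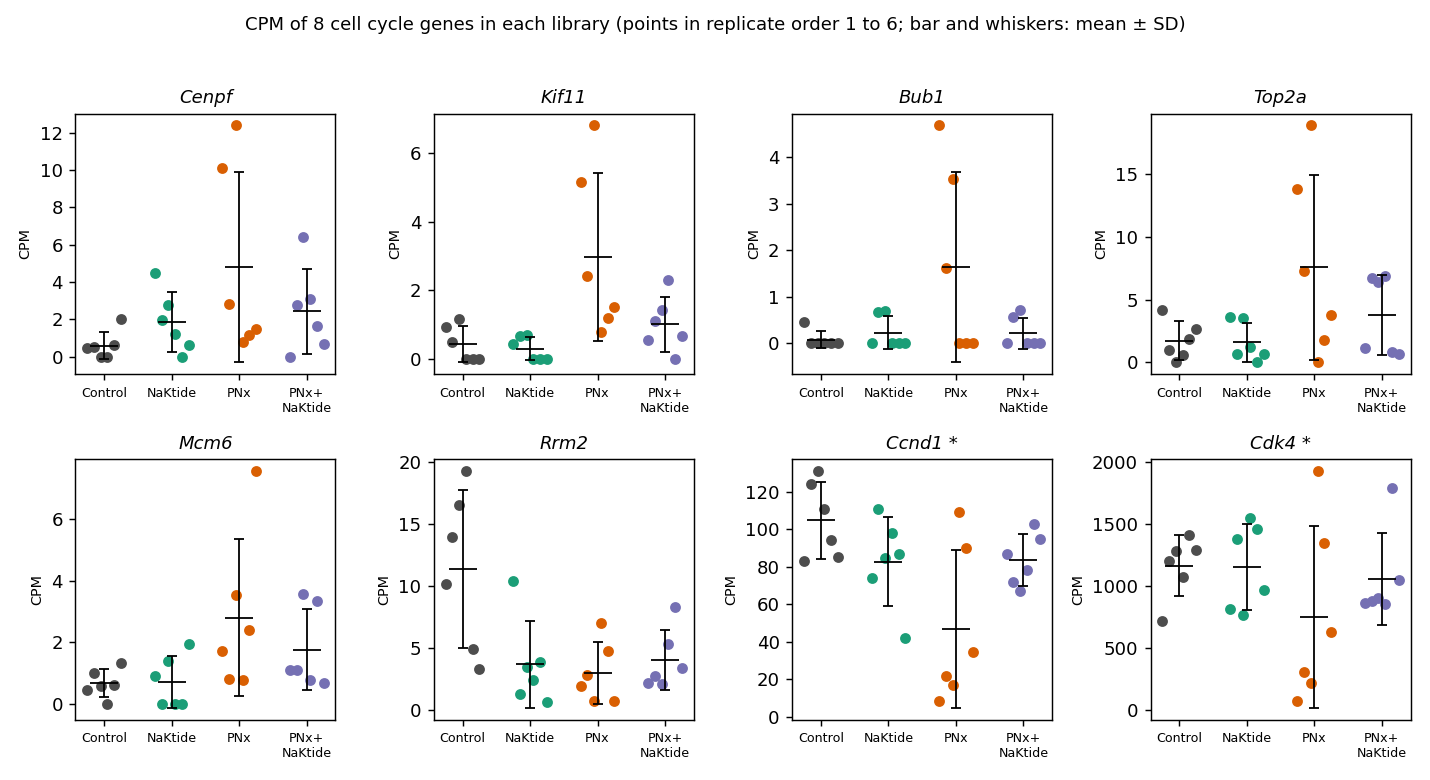
Level in CPM (y axes, linear) of single members in the 6 libraries of each group (x axis), with 1 point per library in the order of the replicate numbers and with the group mean ± SD. For most genes shown, PNx splits into 3 high and 3 low libraries.

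Mitosis genes made up most of the members that were higher in PNx. Cenpf (ENSMUSG00000026605, chromosome 1, 189640606 to 189688086, minus strand), a kinetochore protein made in G2 and mitosis, had the smallest p of all members. It was 0 to 2.01 CPM in Control, 10.1, 2.83 and 12.4 CPM in PNx 1, 2 and 3 and 0.785, 1.19 and 1.51 CPM in PNx 4, 5 and 6. The first 3 lay above every Control library and the others within the Control range, with a log2 fold change of 2.97 ± 0.87 (edgeR, adjusted p = 0.128). The spindle motor Kif11 (ENSMUSG00000012443, chromosome 19, 37376403 to 37421859, plus strand), which pushes the spindle poles apart, was 0 to 1.18 CPM in Control and 5.17, 2.42, 6.81, 0.785, 1.19 and 1.51 CPM in PNx 1 to 6. Here 5 of 6 PNx libraries lay above every Control library, and the log2 fold change was 2.60 ± 0.77 (edgeR, adjusted p = 0.128). The Control libraries held 5 counts of Kif11 in all, with at most 2 in a library. PNx 5, at 1.19 CPM, cannot be told apart from the highest Control value of 1.18 CPM. In PNx 5, 0 counts allows 1.78 CPM.

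The checkpoint kinase Bub1 (ENSMUSG00000027379, chromosome 2, 127801122 to 127831865, minus strand) had 1 count over the 6 Control libraries. In PNx it had 19, 4 and 14 counts in libraries 1, 2 and 3 (4.68, 1.62 and 3.53 CPM) and 0 counts in libraries 4, 5 and 6. Its fitted log2 fold change was 3.54 ± 1.09 (edgeR, adjusted p = 0.13), a value that rests on 1 count in Control. The checkpoint kinase Ttk was 0 to 0.928 CPM in Control, 3.94, 1.62 and 5.05 CPM in PNx 1, 2 and 3 and 0, 0 and 0.755 CPM in PNx 4, 5 and 6, with a log2 fold change of 2.26 ± 0.92. The kinetochore motor Cenpe was 0 to 1.85 CPM in Control, 16, 5.25 and 12.9 CPM in PNx 1, 2 and 3 and 0.785, 0.594 and 1.51 CPM in PNx 4, 5 and 6, with a log2 fold change of 3.14 ± 0.98 (edgeR, adjusted p = 0.132). These genes of the kinetochore and its checkpoint had the same division of the PNx libraries.

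Survivin (Birc5), a part of the chromosomal passenger complex, was 0 to 1.39 CPM in Control, 4.93, 7.67 and 6.56 CPM in PNx 1, 2 and 3 and 0, 0 and 0.377 CPM in PNx 4, 5 and 6, with a log2 fold change of 2.09 ± 0.88. Cyclin B1 (Ccnb1) had 19, 10 and 17 counts in PNx 1, 2 and 3, 0 counts in PNx 4, 5 and 6 and 0 to 3 counts in Control libraries, with a log2 fold change of 1.52 ± 0.99. Its kinase Cdk1 was 0 to 1.75 CPM in Control and 2.46, 2.42, 3.28, 1.57, 1.19 and 0.377 CPM in PNx 1 to 6, with a log2 fold change of 1.68 ± 0.76. The 4 genes Birc5, Ccnb1, Cdk1 and Ttk had 49 to 87 counts in all 24 libraries.

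The proliferation markers Mki67 and Top2a differed in their spread over the PNx libraries. Mki67 (ENSMUSG00000031004, chromosome 7, 135689784 to 135716361), the Ki-67 protein that coats mitotic chromosomes, was 6.03, 11, 11.8, 11.1, 11.1 and 6.69 CPM in Control 1 to 6 and 7.64, 13.7, 12.6, 13.3, 16.6 and 4.91 CPM in PNx 1 to 6. Its PNx libraries fell on both sides of Control without the division into 3 and 3, and the log2 fold change was 0.24 ± 0.38 (edgeR, adjusted p = 0.685). Topoisomerase II alpha (Top2a, ENSMUSG00000020914, chromosome 11, 98992943 to 99024189), which untangles sister chromatids, was 0 to 4.18 CPM in Control, 13.8, 7.27 and 18.9 CPM in PNx 1, 2 and 3 and 0, 1.78 and 3.77 CPM in PNx 4, 5 and 6. Its log2 fold change was 2.13 ± 0.81 (edgeR, adjusted p = 0.142). Ccna2, the mitosis member of highest level at 39.4 FPKM, was 110 to 205 CPM in Control and 89.1 to 293 CPM in PNx, with a log2 fold change of -0.16 ± 0.30 and with counts that Exosc9 may share. It was the only mitosis gene with a negative fold change in this comparison, and its lowest PNx values were those of libraries 3 and 1.

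**Figure D4:**
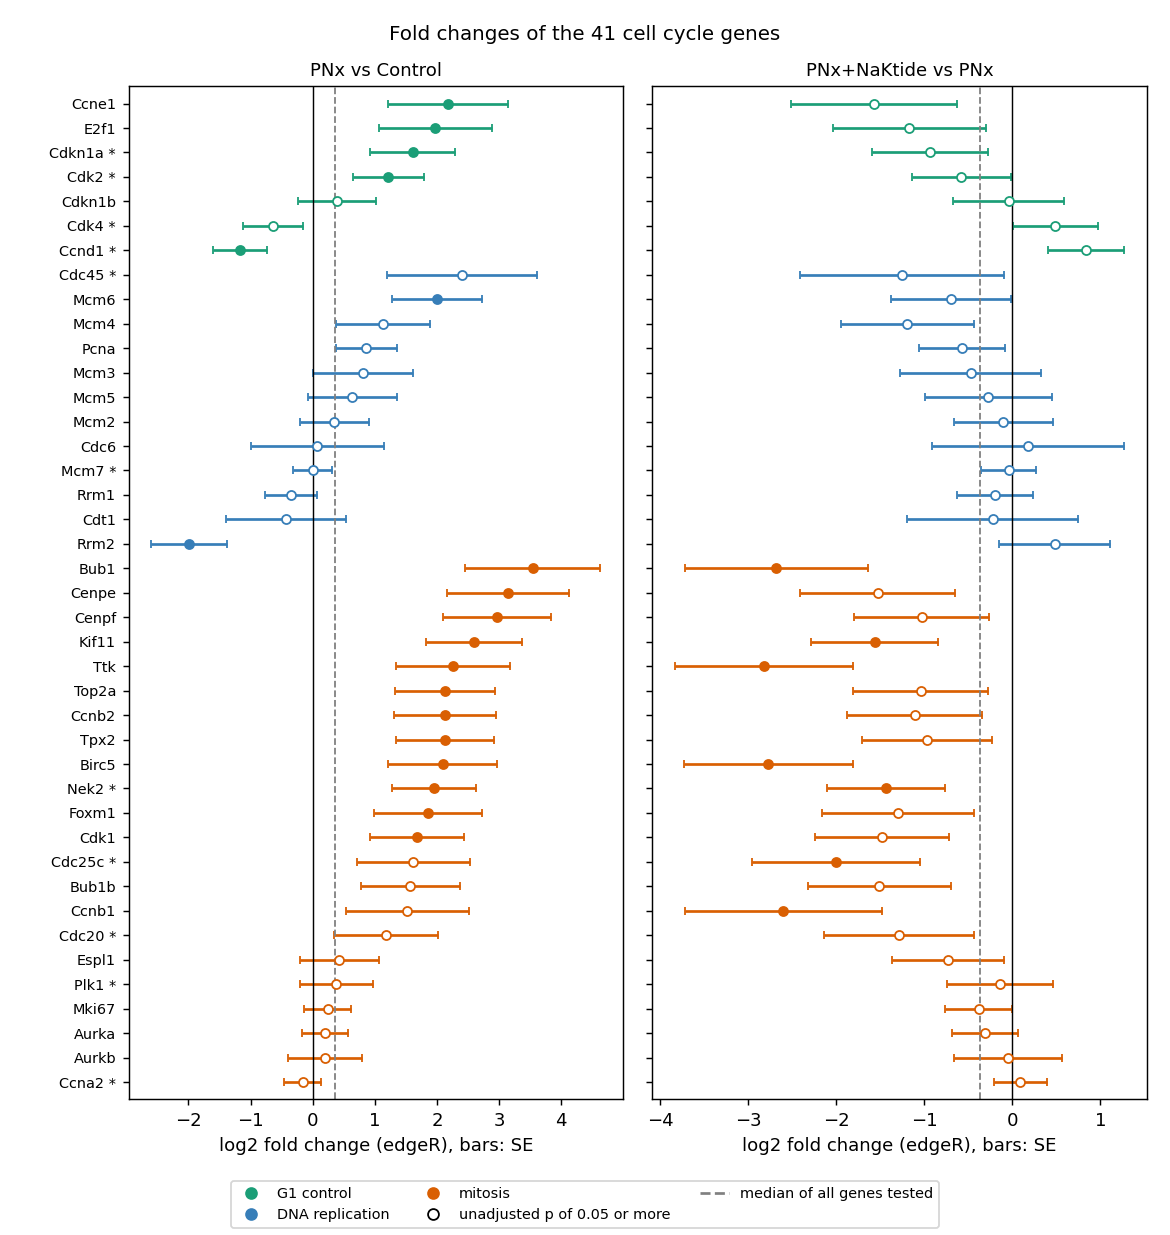
Log2 fold change with its standard error (x axis, edgeR) of each member (rows, coloured by role, * for opposite-strand overlap) in PNx over Control and in PNx+NaKtide over PNx. Filled points have an unadjusted p under 0.05, and the dashed lines mark the medians of all genes tested, 0.36 and -0.37. Of the mitosis genes, 21 of 22 lie above 0 on the left and 21 of 22 below 0 on the right, and both panels use the same PNx libraries.

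The rest of the cell cycle was read from 95 other genes of the same 3 roles, of which 92 were tested. At an unadjusted p under 0.05, 18 were higher and 5 lower in PNx than in Control, with a median log2 fold change of 0.75. These 23 were 25% of the 92, where 25.4% of all genes were below that p (18.5% higher and 6.88% lower). Without PNx 1, 2 and 3 there were 7 higher and 3 lower, where 10.7% of all genes were below it, and the median was 0.18. None passed the adjusted threshold in edgeR. Of 34 mitosis genes 10 were higher and 2 lower, with a median of 1.24 (0.00 without PNx 1, 2 and 3), among them the condensin subunit Smc4 at 2.53 ± 0.77, the cytokinesis factor Ect2 at 2.86 ± 1.03 and the kinetochore protein Nuf2 at 2.57 ± 0.93. Of 35 replication genes 5 were higher and 2 lower, with a median of 0.16 (0.05 without them). Among them the thymidine kinase Tk1, which overlaps exons of an opposite-strand gene by 83 bases, was at -1.23 ± 0.37. Of 23 G1 genes 3 were higher and 1 lower (Cdk6, -1.42 ± 0.47), with a median of 0.60 (0.54 without them).

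The second comparison, PNx+NaKtide against PNx, asks what NaKtide does after nephrectomy. It uses the same 6 PNx libraries as the first, so the values below are not independent of those above. In edgeR, 0 members and 0 of all genes (0%) passed the adjusted threshold, and at an unadjusted p under 0.05 there were 7 members, all lower in PNx+NaKtide and all mitosis genes, against 8.6% of all genes lower and 4.07% higher. The median log2 fold change was -0.93 for the members and -0.37 for all genes. It was -1.29 over the mitosis genes, -0.58 over the G1 genes and -0.24 over the replication genes. With DESeq2, 1 member passed the adjusted threshold where 5.8% of all genes did, and with voom 23 passed where 44% did. Without PNx 1, 2 and 3, 2 members were at an unadjusted p under 0.05, both higher, where 14.6% of all genes were below it, and the median of the members was 0.11. Without them the fold change was above 0 for Bub1 at 1.92 ± 1.23, Birc5 at 1.09 ± 1.22 and Cenpf at 0.96 ± 0.95, and it was -0.37 ± 1.11 for Ttk and -0.23 ± 0.88 for Kif11.

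Birc5 was 0, 1.11, 0.714, 0.768, 0 and 0 CPM in PNx+NaKtide 1 to 6, so 5 of 6 were at or below 0.768 CPM while PNx 1, 2 and 3 were at 4.93 CPM or more. Its log2 fold change was -2.77 ± 0.96 (edgeR, adjusted p = 0.357). Ttk had 1 count in each of PNx+NaKtide 3 and 4 and 0 in the others, and its log2 fold change was -2.82 ± 1.01 (edgeR, adjusted p = 0.357). Bub1 had 1 count in each of PNx+NaKtide 2 and 3 and 0 in the others, with a log2 fold change of -2.68 ± 1.04 (edgeR, adjusted p = 0.357). Each of these genes was at 0 in several PNx+NaKtide libraries and in at least 2 of PNx 4, 5 and 6. Kif11 was 0 to 2.3 CPM in PNx+NaKtide (log2 fold change -1.56 ± 0.72), and Ccnb1 had 2 counts in library 2, 1 in library 6 and 0 in the others (-2.60 ± 1.12). For both, the PNx+NaKtide libraries were lower than PNx 1, 2 and 3.

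Outside mitosis the fold changes went in both directions. The lowest of G1 control and replication were Ccne1 at -1.57 ± 0.94, Cdc45 at -1.25 ± 1.2, Mcm4 at -1.19 ± 0.76 and E2f1 at -1.17 ± 0.87, and the highest was Ccnd1. Ccnd1 was 67.2 to 103 CPM in PNx+NaKtide, with a log2 fold change of 0.84 ± 0.43 (edgeR, adjusted p = 0.407), and all 6 libraries lay above PNx 1, 2, 3 and 6 and below PNx 4. Rrm2 was 2.14 to 8.32 CPM in PNx+NaKtide and overlapped PNx, with a log2 fold change of 0.48 ± 0.63. Pcna was 11.1, 27.9, 35, 18.4, 19.1 and 8.83 CPM in PNx+NaKtide 1 to 6, with 5 of 6 between PNx 4, 5 and 6 and PNx 1, 2 and 3, and with a log2 fold change of -0.57 ± 0.49. Cdc45 was 70.2, 57.9 and 69.1 CPM in PNx+NaKtide 2, 3 and 4 and 0.554, 0 and 1.36 CPM in libraries 1, 5 and 6. Like the PNx group, PNx+NaKtide was divided for this gene, and libraries 2, 3 and 4 were also those with the highest germ cell marker sums of that group.

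Between NaKtide and Control, which shows the transgene in sham mice, 0 members and 0 of all genes (0%) passed the adjusted threshold in edgeR, and 1 was at an unadjusted p under 0.05, where 3.95% of all genes were (1.91% lower). That gene was Rrm2, at 10.4, 1.33, 3.49, 2.42, 3.94 and 0.647 CPM in NaKtide 1 to 6 against 3.35 to 19.3 CPM in Control, with a log2 fold change of -1.56 ± 0.62 (edgeR, adjusted p = 1). Rrm1 was 2.59 to 5.91 CPM in NaKtide and 6.69 to 10.7 CPM in Control, with a log2 fold change of -0.91 ± 0.45 (edgeR, adjusted p = 1). The NaKtide libraries held 3 to 11 counts of Rrm1 each, and 0 counts in NaKtide 5 allows 5.91 CPM. Cenpf was 0 to 4.5 CPM in NaKtide, with a log2 fold change of 1.73 ± 0.92. The median of the members was 0.05 and that of all genes was 0.00.

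Between PNx+NaKtide and NaKtide, which shows nephrectomy under the transgene, 0 members and 0 of all genes (0%) passed the adjusted threshold in edgeR, and 0 were at an unadjusted p under 0.05, where 4.09% of all genes were (1.5% higher and 2.58% lower). The members of smallest p were Kif11 at 1.33 ± 0.91, Cdc45 at 1.68 ± 1.21 and Pcna at 0.67 ± 0.50 on the log2 scale. The median of the members was 0.23 and that of all genes 0.04.

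The interaction, the fold change of nephrectomy under NaKtide minus that under GFP, tests whether the 2 effects of nephrectomy differ. In edgeR, 0 members and 0 of all genes (0%) passed the adjusted threshold, and 3 members were at an unadjusted p under 0.05, where 9.27% of all genes were (3.48% higher and 5.79% lower). These were Rrm2 at 2.04 ± 0.88, Cenpf at -2.76 ± 1.2 and Birc5 at -3.18 ± 1.39 (edgeR, adjusted p = 0.513 for each). With voom, 13 members passed the adjusted threshold, where 25.5% of all genes did. Without PNx 1, 2 and 3, 3 members were at an unadjusted p under 0.05 in edgeR, where 13.8% of all genes were below it, with a median of 0.28 over the members. The values without them were 1.54 ± 0.95 for Rrm2, -0.77 ± 1.2 for Cenpf and 0.68 ± 1.32 for Birc5. The median interaction of the members was -0.94 and that of all genes -0.35.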

How the data were processed

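RNA of 24 mice, 6 in each of 4 groups taken from the sample labels, was prepared with a stranded mRNA kit and sequenced as paired reads of 50 bases. According to the methods and the submitters' processing notes, the authors trimmed reads with Trimmomatic 0.38, aligned them to GRCm38 with HISAT2 2.1.0 and counted them per gene with GenomicAlignments. They used DESeq2 1.20.0. For the strand setting and for the release of the gene annotation, nothing was given in the sources used here. The deposited raw counts per gene were used for the tests, and the FPKM deposited by the authors for levels per length and as an alternative. The deposited normalized values were not used.

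Symbols came from GENCODE M21, which held 54165 of the 54232 identifiers. Genes with more than 10 counts in all were tested (26116) with edgeR 4.0.16 in R 4.3.3, in 1 quasi-likelihood fit of the 4 group means, with TMM scaling (trimmed mean of M values). The adjusted p threshold was 0.1, Benjamini-Hochberg over all genes tested. CPM are scaled by TMM. The SE of an edgeR log2 fold change is its absolute value divided by the square root of the F statistic of its test. It is approximate, most of all for fold changes near 0. The biological coefficient of variation was 71.4%. Alternatives were DESeq2 1.42.0, its size factors, limma 3.58.1 (voom with sample weights, and log2(FPKM + 1) or log2(FPKM + 0.1)), other filters, the 2 groups alone, a replicate block and leaving out libraries. The fits were tested on simulated data.

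The members, the lists and the tests were chosen with earlier results of these data known. Named genes were 12 core genes (such as Mki67, Cdk1 and Pcna), the 4 members of smallest p per role between PNx and Control, the 3 of smallest p in each other comparison, and members with an overlap or an extreme level. Replicate numbers were not used to pair the samples, since nothing in the labels ties them. Of 36 same-number pairs, 19 correlated over 0.1 (range -0.59 to 0.71). Pairs of different numbers were not compared, so these values cannot decide whether the numbers pair the samples. No 2 libraries of a group differed by as little as sampling noise (lowest chi-square per degree of freedom 1.57, Control 5 and 6). Some libraries of a group lay much closer than others. PNx+NaKtide 2, 3 and 4 gave 1.93 to 2.60 among themselves and 20.7 to 30.3 against libraries 1, 5 and 6. Values of some single genes are not reported here.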

Additional observations from a re-analysis of the deposited data

Results flagged for a closer look

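Of 108 groups of 6 libraries examined for a library far from the other 5, 7 (6.48%) held one by Dixon's test, where chance gives about 1 in 20 for normal values. A group with counts in 1 library and 0 in the other 5 is always flagged. So that rate is no reference for the genes near 0 here. In Control, Bub1 was 0.464 CPM in replicate 1 (1 count, with 0 in the other 5 libraries), and Cenpf was 2.01 CPM in replicate 6. In NaKtide, Rrm2 was 10.4 CPM in replicate 1, Cenpe was 4.89 CPM in replicate 3, Mcm7 was 70.5 CPM in replicate 6 and Ttk was 0.647 CPM in replicate 6 (1 count, with 0 in the other 5). In PNx+NaKtide, Cdk4 was 1794 CPM in replicate 5. The PNx libraries 1, 2 and 3, which stand apart for most mitosis genes, cannot be found by this test, since 3 of 6 lie together.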

How the results depend on the processing

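At the adjusted threshold, the count of called members between PNx and Control (0) became 24 with DESeq2, 24 with the DESeq2 size factors in edgeR, 14 with library size only (15.7% of all genes called), 6 with filterByExpr (17.9%, with 17 members tested), 31 with voom, 13 without the sixth PNx and sixth NaKtide library (21%, an alternative chosen after seeing the data, as was leaving out PNx 1, 2 and 3 together) and 0 to 20 without single libraries. Between PNx+NaKtide and PNx (0) it became 1 with DESeq2 and 23 with voom, and for the interaction (0) 13 with voom, and both were 0 without any single library. At an unadjusted p under 0.05, the 19 members between PNx and Control (25.4% of all genes) became 9 with filterByExpr (33%). Brackets here and below give the share of all genes below that p. The 19 became 30 with voom (61.3%) and 2 without PNx 1, 2 and 3 (10.7%). Without single libraries they became 10 to 23, with 10 without PNx 3 (16.9%) and 23 without PNx 4 (36.6%) or PNx 6 (31%). The 7 between PNx+NaKtide and PNx (12.7%) became 19 with DESeq2 (21.6%), 17 with its size factors (25.1%) and 0 with filterByExpr (17.6%). They became 13 on log2(FPKM + 1) (19.2%), 23 with voom (45.9%) and 2 without PNx 1, 2 and 3 (14.6%). Without single libraries they became 2 to 12, with 2 without PNx 1 (8.46%) and 12 without PNx+NaKtide 2 (16.2%). The 1 between NaKtide and Control (3.95%) became 2 with DESeq2 (3.7%), with filterByExpr (3.73%) and without the sixth libraries (3.66%). It became 3 with the compared groups only (6.32%), with voom (8.45%) and without PNx 1, 2 and 3 (5.31%). Without single libraries it became 1 to 2 (2.91% to 5%). The 0 between PNx+NaKtide and NaKtide (4.09%) became 1 with voom (5.84%) and stayed 0 without single libraries (2.58% to 5.28%). The 3 of the interaction (9.27%) became 6 with DESeq2 (12.1%) and with its size factors (14.3%), 1 with filterByExpr (10.7%) and 5 with library size only (10.9%). They became 19 with voom (33.5%) and 5 without the sixth libraries (9.19%). Without single libraries they became 1 to 6, with 1 without PNx 3 (7.84%) and 6 without PNx 4 (14.5%). The cause of these changes was not tested, except that filterByExpr tested fewer members.

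With the replicate number as a block, the called members were 0 in every comparison, where at most 0.00766% of all genes were called. Members at an unadjusted p under 0.05 were 13 between PNx and Control, where 20.3% of all genes were below it. There were 6 between PNx+NaKtide and PNx (11.2%) and 2 for the interaction (7.41%). Nothing in the labels ties libraries of the same number, and whether the numbers pair the samples was not settled. So this fit is no measure of a weaker effect.

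Without PNx 1, 2 and 3, the members below 0 between PNx and Control went from 7 to 21 of 41. Among named genes called by an alternative or more than 1 SE from 0 in both fits, the log2 fold changes that changed sign became -1.76 for Birc5, -1.10 for Bub1, -3.42 for Ccnb1, -2.30 for Cdc45 and -0.80 for Pcna, and between PNx+NaKtide and PNx 1.92 for Bub1, 2.35 for Ccnb1, 1.30 for Ccne1, 3.45 for Cdc45, 0.96 for Cenpf, 1.12 for E2f1 and 1.10 for Pcna. Nearer to 0, signs also changed to -0.69 for Ccne1, -0.32 for E2f1, -0.18 for Ttk and 0.16 for Cdk4 in the first comparison, to 1.09 for Birc5, 1.05 for Cenpe, 0.88 for Top2a, -0.30 for Cdk4 and -0.01 for Rrm2 in the second, and to 0.68 for Birc5 in the interaction. With voom, Cdkn1b became -1.09 between PNx and Control and 1.53 between PNx+NaKtide and PNx. Of 1949 values of named genes under the alternatives, 49 changed sign, 35 of them while uncalled and within 1 SE of 0 in a fit, and 130 came to pass the threshold. Depth limits the low genes most: 13 members had fewer than 100 counts in all 24 libraries.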
